A study of Mus musculus with 8 samples.

Results

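The cytosolic ribosomal protein genes encode the proteins of the large (60S) and small (40S) subunits of the ribosome. They were taken by name, as protein-coding genes with an Rpl or Rps symbol followed by a number, together with the stalk genes Rplp0 to Rplp2 and Rpsa, and without the Rps6k kinases. The rule uses gene names only. It gave 84 genes of the 56884 in the count tables, 51 of the large and 33 of the small subunit. Their mRNA was compared in the liver of 3 DIO mice and 5 DIO + DHA mice, with 1 library per mouse. All were C57BL/6J females that ate, from the age of 2 months, a high-fat diet in which lipids gave 45% of the energy. After 4 months on this diet, the DIO group kept it up to 18 months of age, while in the diet of the DIO + DHA group a fish oil concentrate replaced 15% by weight of the lipids over the same time. The concentrate held 683.4 mg of docosahexaenoic acid (DHA) and 46.7 mg of eicosapentaenoic acid per g, so the comparison is of the whole concentrate with the fat that it replaced. Both groups were obese and aged, and lean mice on a regular diet were not analysed here.

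Ribosomal proteins assemble with ribosomal RNA into the machine that translates mRNA, and most of them are needed in equal numbers. In mammals many of their mRNAs begin with a run of pyrimidines after the cap, the terminal oligopyrimidine (TOP) motif, through which mTOR signalling and the RNA-binding protein LARP1 control their translation and stability. Hepatocytes secrete most plasma proteins and hold large numbers of ribosomes, and several ribosomal protein mRNAs serve as reference genes in liver work.

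Poly(A) RNA was sequenced as 3′-enriched cDNA and the deposited values are counts per gene. The total per library ran from 1723800 in DIO replicate 1 to 5690347 in DIO replicate 5, and the median total was 4495644. Values are given as CPM, counts per 1000000 of the library total after scaling by the TMM method. They are not divided by gene length, so they compare a gene between libraries and not 1 gene with another. Differences are log2 fold changes of DIO + DHA over DIO. They were tested by the quasi-likelihood method of edgeR, the p-values were adjusted by Benjamini-Hochberg over the 12412 genes tested, and a gene was called at an adjusted p under 0.05. Of 9 hepatocyte markers 2 were called higher and 2 lower. Their sums overlapped, at 79676 to 84888 CPM in DIO and 82880 to 97325 CPM in DIO + DHA libraries. Several other sets of markers moved with the group. All 15 skeletal muscle genes looked at were higher in the DIO + DHA group. Their sums were 43.3 to 47.3 CPM in DIO and 1455 to 1558 CPM in DIO + DHA libraries. Of 13 macrophage genes 11 were lower and 1 was higher, with sums of 958 to 1055 CPM against 533 to 575 CPM. Of 10 squamous epithelium genes 5 were tested, and all 5 were higher. They passed the filter on low counts only through the DIO + DHA libraries, which fixed this direction. The sums of all 10 were 0.563 to 0.902 CPM against 73.7 to 83.9 CPM, and Krt13 was at 0 in the 3 DIO libraries. In T and NK cell genes 7 of 11 were lower, with sums of 143 to 165 CPM against 52.2 to 61.0 CPM. Sums of endothelial genes (2 of 6 lower) did not overlap either, at 162 to 183 against 116 to 137 CPM. Nor did those of stellate cell genes (2 of 6 lower), at 254 to 276 against 209 to 235 CPM. Sums of B cell, erythroid and cholangiocyte genes overlapped, and 1 of 5 cholangiocyte genes was called higher. Bulk RNA cannot tell fewer cells of a type from less RNA per cell, and the part of these markers in the differences of ribosomal protein genes was not tested.

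The start of the transcript is the part of these genes on which their shared control rests, so it was read for the members with the largest counts, for those with the largest called differences, for Rplp0, and for Rpl22l1, which had the lowest fold change. Each line holds 30 bases, 10 before the RefSeq start site and 20 from it, on the transcribed strand. RefSeq starts can differ from the gene starts of the annotation used for counting. The windows of Rps15 and Rpl37a end before the counted genes begin, at 80128287 and 72750449. The sequences are from the RefSeq table for GRCm38.p6 and were placed in GRCm39 by an exact match. Capitals mark a TOP-like run, at least 7 C or T in a row beginning with C.
Rps26, chr10:128462356-128462385, minus strand: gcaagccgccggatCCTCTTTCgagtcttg
Rps15, chr10:80128255-80128284, plus strand: cagagctcgcgataactgcgcaagcgcagc
Rpl37a, chr1:72750409-72750438, plus strand: ctcgccggtctaaaaccgcgcatgcgcatt
Rps2, chr17:24939027-24939056, plus strand: gtcgagatctcgcgcttcttggagcactat
Rplp2, chr7:141027554-141027583, plus strand: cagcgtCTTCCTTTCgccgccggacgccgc
Rpl12, chr2:32851714-32851743, plus strand: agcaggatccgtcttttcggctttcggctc
Rpl36a, chrX:133486393-133486422, plus strand: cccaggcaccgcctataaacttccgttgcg
Rpl3l, chr17:24946790-24946819, plus strand: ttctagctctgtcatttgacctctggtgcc
Rplp0, chr5:115697516-115697545, plus strand: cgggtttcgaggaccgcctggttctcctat
Rpl22l1, chr3:28859647-28859676, plus strand: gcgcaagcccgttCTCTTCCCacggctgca
A run stood in the windows of Rps26, Rplp2 and Rpl22l1, and shorter stretches of pyrimidines stood in some of the others. The table gave a start for 63 of the 84 members, and it lists none for Rplp1 and Rps4l, among others. Of those 63, 30 (47.6%) held a run, against 16.7% of the 15324 protein-coding genes with a start, and 14 (22.2%) held CTTTCC or CTTTTC on that strand, against 2.40%. The 2 searches overlap, since either hexamer can lie inside a run. Among tested members, a run was found in 7 of the 15 called members with a start (46.7%) and in 21 of the 44 others (47.7%). The median log2 fold change was 0.21 for the 28 tested members with a run and 0.23 for the 31 without. A match describes letters in a window and not a working motif, and the lack of a run does not show that the motif is absent. The window of Rpl12 holds CTTTTC but no run, and a window can miss the start of the counted gene. The split by run therefore cannot separate members with the motif from those without it.

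Ribosomal protein mRNA was slightly more abundant in the DIO + DHA livers, across both subunits. Of the 80 members tested, 25 (31.2%) were called higher and 0 were called lower, where 7.89% of all genes tested were called higher and 7.28% lower. At an unadjusted p under 0.05 by edgeR, 44 members were higher and 0 lower, against 13.0% and 12.2% of all genes. The fold change was positive for 77 members, against 50.1% of all genes, and negative only for Rpl22l1, Rpl29 and Rpl35a. Its median was 0.23 on the log2 scale, a 1.18-fold difference, with quartiles of 0.14 and 0.32, and the median of all genes tested was 0.00. The median standard error was 0.09 for members and 0.20 for all genes on the log2 scale, and its part in the share of members called was not tested. In 21 members the lowest DIO + DHA value exceeded the highest DIO value, which held for 9.54% of all genes, and in 0 members was it the other way, against 8.88%.

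**Figure D1:**
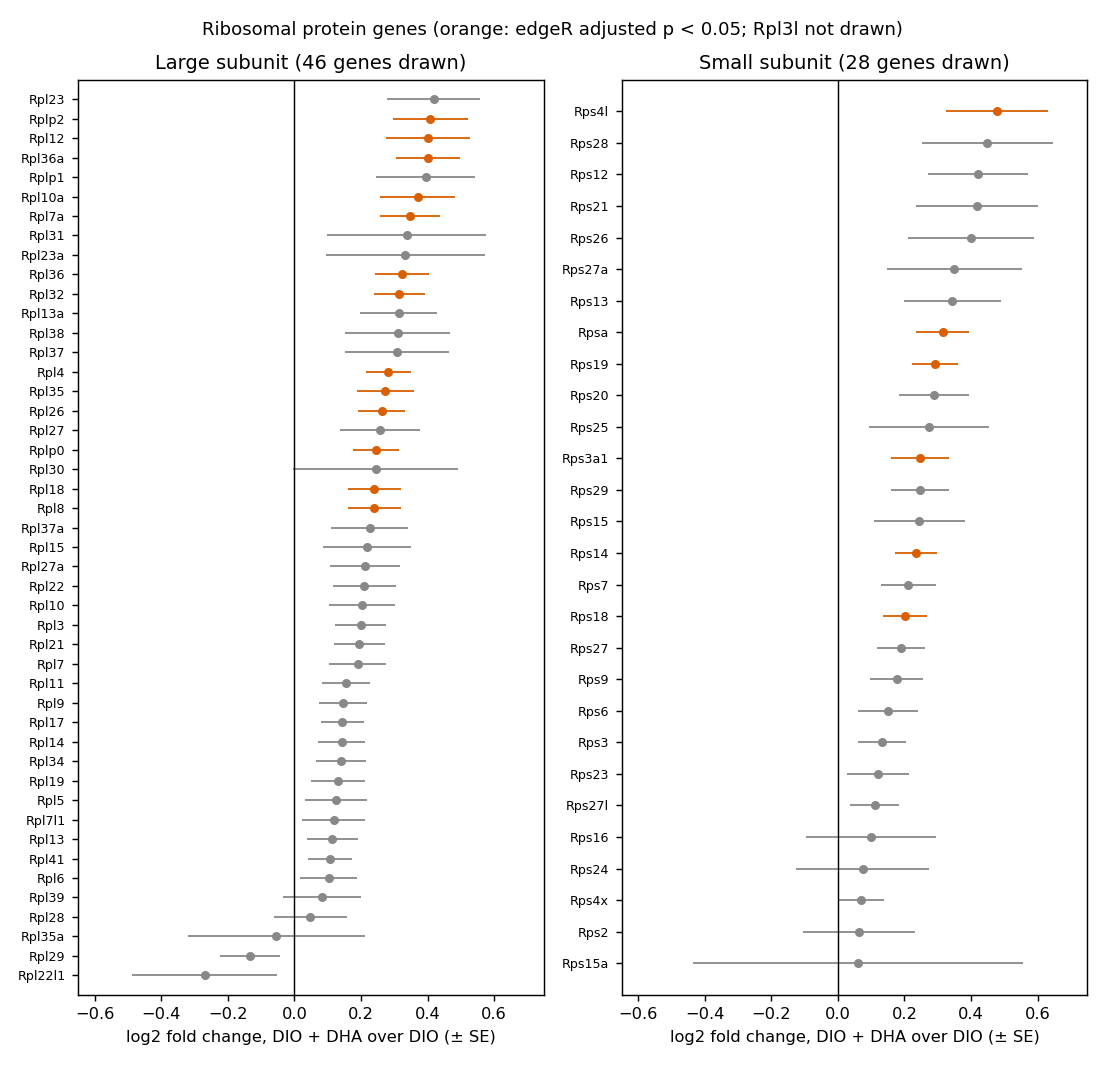
Log2 fold change (DIO + DHA over DIO, ± standard error) of tested ribosomal protein genes, large subunit on the left and small subunit on the right, ordered by size; orange points were called by edgeR at an adjusted p under 0.05. The 28 small subunit genes drawn and all but 3 of the 46 large subunit genes drawn lie to the right of 0, and Rpl3l, at 3.55, is left out for scale. A further 5 tested genes are counted in the text but not drawn.

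Both subunits were called at the same rate, though the difference between them was not tested. In the large subunit 15 of 48 tested genes were called higher, at a median log2 difference of 0.23. The small subunit had 10 of 32 called and a median of 0.24. The summed level of large subunit genes was 12498 ± 788 CPM in DIO (SD, n = 3) and 14699 ± 959 CPM (SD, n = 5) in DIO + DHA mice, and that of small subunit genes was 10570 ± 691 and 12364 ± 599 CPM. The ratio of the large to the small sum was 1.18 ± 0.00506 and 1.19 ± 0.0225. Members with a mean of at least 100 CPM (67 genes) and the less abundant ones (13 tested) had 31.3% and 30.8% called and medians of 0.23 and 0.27.

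In every DIO + DHA library the members summed to more than in any DIO library. As a share of all counts they took 2.40%, 2.45% and 2.13% in DIO replicates 1, 4 and 5, and 2.76%, 2.57%, 2.70%, 2.59% and 2.79% in DIO + DHA replicates 1, 2, 4, 5 and 6. The summed level was 23312, 24409 and 21484 CPM in the DIO libraries and 27776, 25390, 27457, 25610 and 29083 CPM in the DIO + DHA libraries. The groups did not overlap in either measure, but the gap was narrow, between DIO replicate 4 and DIO + DHA replicate 2. The median deviation of a member from its mean over the 8 libraries was −0.13, −0.07 and −0.23 on the log2 scale in the DIO libraries and 0.11, −0.01, 0.09, −0.05 and 0.22 in the DIO + DHA libraries. DIO replicate 5 was the lowest of the 8 libraries for 46 of the 80 tested members and DIO replicate 1 for 24, while DIO + DHA replicate 6 was the highest for 40. Over the 67 members that averaged 100 CPM or more, the coefficient of variation within a group had a median of 9.65% (DIO) and 10.8% (DIO + DHA), beside 3.48% and 2.98% from counting error.

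**Figure D2:**
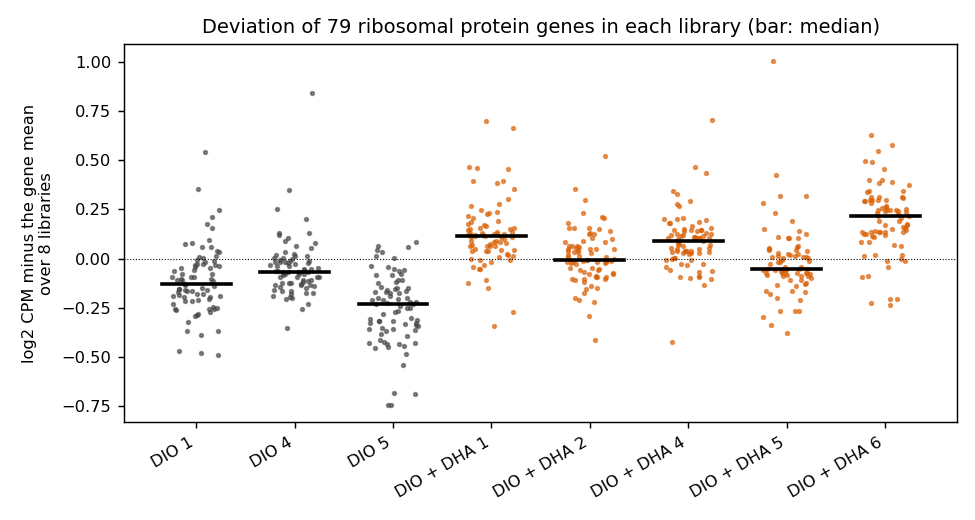
Deviation of 79 ribosomal protein genes (without Rpl3l) from their own mean over the 8 libraries, as log2 CPM on the vertical axis, for each library on the horizontal axis; each point is 1 gene and each bar is the library's median. The medians of the DIO libraries lie between −0.23 and −0.07 and those of the DIO + DHA libraries between −0.05 and 0.22, with DIO replicate 5 lowest and DIO + DHA replicate 6 highest.

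The number called rested in part on DIO replicate 5. Without it 13 members were called higher, where 6.17% of all genes were, Rpl35a was called lower, and the median fold change was 0.19. The study's own criterion, a limma-voom log-odds (B) over 0, called 3 members (Rpl3l, Rpl4 and Rplp1), a share close to the 3.73% of all genes it called higher. At an adjusted p under 0.05 limma-voom called 34 members higher and 7.69% of all genes.

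**Figure D3:**
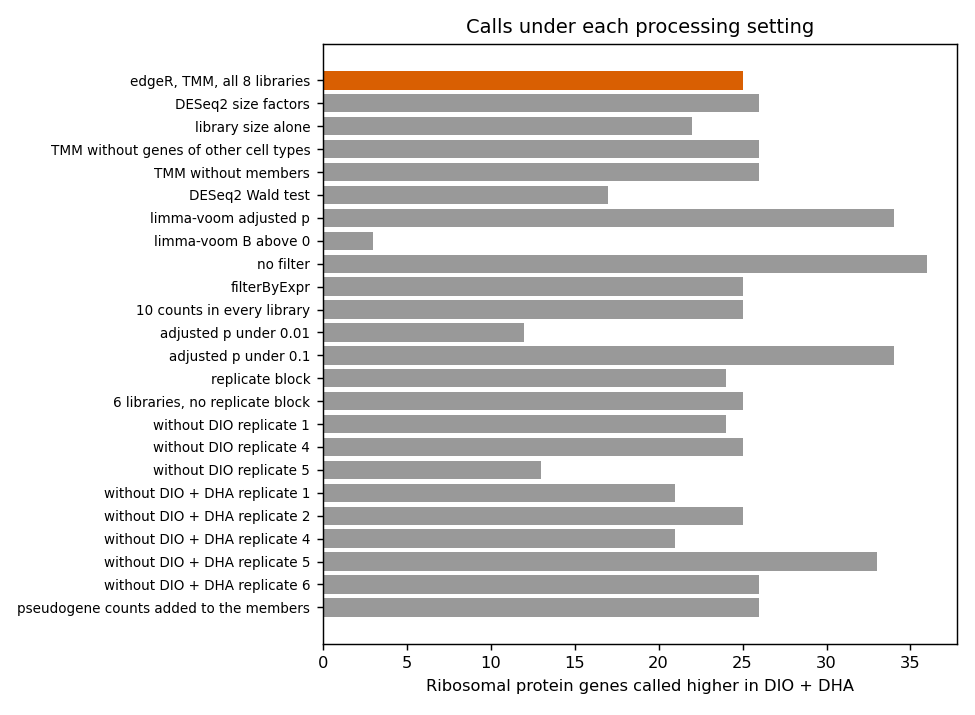
Number of ribosomal protein genes called higher in DIO + DHA livers (horizontal axis) under each processing setting (1 bar per setting, the reported setting in orange). The number is 25 as reported, falls to 3 at B above 0 and to 13 without DIO replicate 5, and reaches 36 without a filter on low counts. All genes called higher, which are not drawn, numbered 979, 463, 766 and 980 under these settings.

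The stalk proteins P0, P1 and P2 form the flexible arm of the large subunit that recruits elongation factors. Rplp0, which encodes P0 and under the name 36b4 was the reference gene of the study's quantitative PCR, was at 362, 359 and 361 CPM in the DIO libraries and at 435, 416, 435, 385 and 466 CPM in the DIO + DHA libraries. Its 3 DIO values were almost equal and every DIO + DHA value lay above them. Rplp0 rose 1.19-fold, by 0.25 ± 0.07 (SE) on the log2 scale, with an adjusted p of 0.00849 by edgeR, and it was called higher with each of the 8 libraries left out in turn. Rplp2, which encodes P2, was at 212, 229 and 164 CPM in DIO and at 287, 249, 249, 231 and 314 CPM in DIO + DHA mice. Here too the groups did not overlap, though DIO + DHA replicate 5 was only just above DIO replicate 4, and edgeR gave a log2 fold change of 0.41 ± 0.11 with an adjusted p of 0.0205. Rplp1, which encodes P1, was at 1241, 1390 and 1082 CPM in DIO and at 1727, 1462, 1487, 1399 and 2053 CPM in DIO + DHA mice. The groups of Rplp1 did not overlap either, but the libraries of each group were spread widely, and its log2 fold change of 0.39 ± 0.15 had an adjusted p of 0.148 by edgeR. Limma-voom gave Rplp1 an adjusted p of 0.00110. Rpl12, at the base of the stalk, rose from a mean of 51.6 CPM (SD 15.7, n = 3) to 64.1 CPM (SD 4.87, n = 5), with an overlap, since DIO replicate 1 was at 67.5 CPM. Without DIO replicate 5 the difference of Rpl12 was 0.18 with an adjusted p of 0.400 by edgeR.

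Rpl4 and Rpl26 lie along the tunnel through which the new peptide leaves the ribosome. Rpl4, whose long loop reaches into the tunnel, was at 394, 400 and 375 CPM in DIO livers and at 481, 456, 486, 444 and 503 CPM in DIO + DHA livers. All DIO + DHA values were above all DIO values and both groups were tight, with a log2 fold change of 0.28 ± 0.07 and an adjusted p of 0.00157 by edgeR. Rpl26, next to the tunnel exit, rose from 476 ± 55.2 to 571 ± 27.9 CPM, but DIO replicate 4 (530 CPM) was above DIO + DHA replicate 5 (522 CPM). Without DIO replicate 5 the log2 difference of Rpl26 went from 0.26 to 0.18, with an adjusted p of 0.121 by edgeR. Among other proteins of the large subunit, Rpl32 rose from 219 ± 16.1 to 271 ± 24.8 CPM, Rpl36 from 518 ± 49.7 to 646 ± 81.6 CPM and Rpl36a from 230 ± 25.2 to 304 ± 43.9 CPM (SD, n = 3 and n = 5). Their log2 fold changes were 0.31, 0.32 and 0.40, with no overlap of the groups. Rpl7a rose from 110 ± 12.2 to 138 ± 16.3 CPM, by 0.35 on the log2 scale. Its DIO replicate 1 (122 CPM) lay above DIO + DHA replicate 5 (111 CPM), and without DIO replicate 5 its adjusted p by edgeR was 0.0757. Rpl8, Rpl10a, Rpl18 and Rpl35 were also called, with log2 fold changes between 0.24 (Rpl8) and 0.37 (Rpl10a), but all 4 lost the call without DIO replicate 5 and with DESeq2. Rpl35 shares 66.2% of its exon bases with the neighbours Wdr38 and Arpc5l, and reads that overlap 2 genes were not counted.

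In the small subunit, Rps19 had the smallest p-value. Rps19 is needed to mature the small subunit and is the gene most often mutated in Diamond-Blackfan anaemia. Its level was 435, 440 and 441 CPM in DIO libraries and 520, 492, 569, 513 and 590 CPM in DIO + DHA libraries. The DIO values were almost equal and all DIO + DHA values were higher, a 1.22-fold rise with a log2 fold change of 0.29 ± 0.07 and an adjusted p of 0.00129 by edgeR.

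Rpsa, the laminin receptor protein that sits on the small subunit near the mRNA exit, was at 221, 213 and 183 CPM in DIO and at 262, 243, 232, 235 and 297 CPM in DIO + DHA mice. The groups did not overlap. The log2 fold change was 0.32 ± 0.08 with an adjusted p of 0.00301 by edgeR, and of 0.0703 without DIO replicate 5. Rps14, on the platform of the small subunit, rose from 884 ± 41.9 to 1039 ± 45.5 CPM, by 0.23 on the log2 scale, again with no overlap. Also called were Rps4l, described with the paralogs, Rps18, with a log2 fold change of 0.20, and Rps3a1, with one of 0.25. With each of the 8 libraries left out in turn, Rps18 was called 5 times and Rps3a1 only 2 times, and DESeq2 gave Rps3a1 an adjusted p of 0.125. Among members that were not called, Rps28 had the highest fold change, 0.45 ± 0.20 with an adjusted p of 0.220 by edgeR. It was at 154, 199 and 185 CPM in DIO and at 342, 235, 197, 222 and 238 CPM in DIO + DHA mice, so the groups overlapped and DIO + DHA replicate 1 stood apart.

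**Figure D4:**
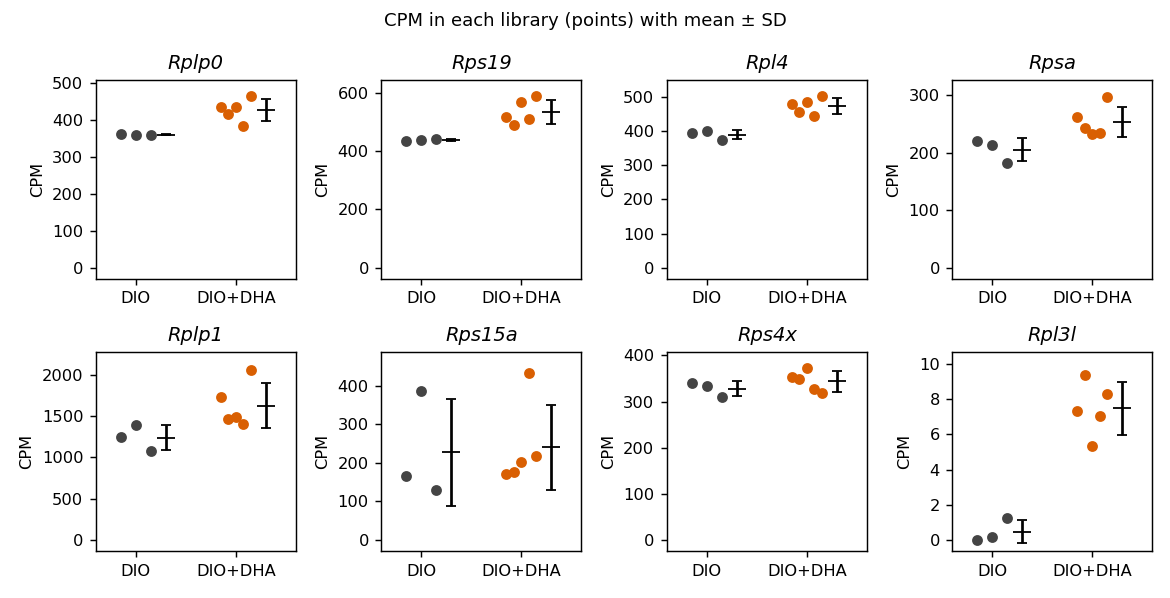
CPM of 8 ribosomal protein genes in each library (points) with the group mean ± SD (black), DIO (n = 3) and DIO + DHA (n = 5), each panel on its own linear axis from about 0. Rplp0, Rps19, Rpl4, Rpsa, Rplp1 and Rpl3l show no overlap between groups, Rps4x overlaps, and Rps15a has 1 high library in each group.

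Rps6, Rps27a, Rpl5 and Rpl11 have known roles beside that in the ribosome, and edgeR did not call them. Rps6, the substrate of the S6 kinases, was at 99.4 ± 14.9 CPM in DIO (SD, n = 3) and 112 ± 9.26 CPM (SD, n = 5) in DIO + DHA mice, a log2 difference of 0.15 with an adjusted p of 0.299 by edgeR. Rps27a, made as a fusion with ubiquitin, was at 238 ± 53.7 and 306 ± 51.3 CPM, a difference of 0.35 with an adjusted p of 0.363 by edgeR. Limma-voom gave Rps27a an adjusted p of 0.0329, against 0.332 for Rps6, 0.430 for Rpl5 and 0.170 for Rpl11. Rpl5 and Rpl11 carry 5S ribosomal RNA and bind MDM2 when ribosome assembly fails. Rpl5 was at 72.0 ± 6.93 and 77.7 ± 7.15 CPM and Rpl11 at 430 to 472 and 455 to 587 CPM. Their log2 differences were 0.12 and 0.16, with adjusted p-values of 0.443 and 0.162 by edgeR. Rpl5 shares 100% of its last 300 exon bases with other genes, and reads that overlap 2 genes were not counted. All 4 of these differences were positive and within the range of the other members.

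Several ribosomal proteins have a paralog that can take their place in the ribosome. Rpl3l is the paralog of Rpl3 found in heart and skeletal muscle. It had 0, 1 and 7 counts in the DIO libraries and 37, 28, 15, 30 and 38 counts in the DIO + DHA libraries, or 0 to 1.24 CPM against 5.35 to 9.38 CPM. This was the largest difference of any member, a log2 fold change of 3.55 ± 0.41 with an adjusted p of 5.22e-10 by edgeR, and it passed the filter only through the DIO + DHA libraries. DIO replicate 5 held 7 of the 8 DIO counts. Without it 1 count was left in the DIO group, and the ratio of counts per library total was 54.0, with a 95% exact interval of 9.54 to 2147 that covers counting error only. Rpl3l moved with the skeletal muscle genes, among them Acta1, muscle actin, at 11.5 to 12.1 CPM in DIO and 523 to 579 CPM in DIO + DHA livers, and the part of muscle RNA in its difference was not tested. Rpl3 itself was at 189, 189 and 172 CPM in DIO and at 211, 192, 214, 200 and 233 CPM in DIO + DHA mice, with no overlap, a difference of 0.20 ± 0.08 and an adjusted p of 0.0690 by edgeR. Without Rpl3l, 24 members were called higher, the median fold change remained 0.23 and the largest was 0.48.

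That largest value belonged to Rps4l, an autosomal paralog of the X-linked Rps4x. Rps4l was at 14.6, 16.2 and 13.3 CPM in DIO and at 22.2, 16.8, 19.3, 22.5 and 20.7 CPM in DIO + DHA mice. The groups did not overlap, with DIO + DHA replicate 2 just above DIO replicate 4, and edgeR gave 0.48 ± 0.15 with an adjusted p of 0.0228. Rps4x was at 309 to 340 CPM in DIO and 318 to 373 CPM in DIO + DHA mice, a difference of 0.07 ± 0.07 with an adjusted p of 0.603 by edgeR. The difference between the paralogs was not tested, and Rps4l was not called without DIO replicate 5 (adjusted p of 0.183 by edgeR). In the pair of Rpl22, an RNA-binding protein of the outer surface, Rpl22 was at 122 ± 13.1 and 139 ± 20.2 CPM and Rpl22l1 at 8.42 ± 1.32 and 7.19 ± 1.54 CPM. Their log2 differences were 0.21 and −0.27, neither called. Rpl22l1 shares 53.0% of its last 300 exon bases with other genes, and reads that overlap 2 genes were not counted. The pairs of Rps27 and Rps27l (0.19 and 0.11) and of Rpl7 and Rpl7l1 (0.19 and 0.12) had positive differences that were not called. Rpl10, next to the peptidyl transferase centre, and Rpl39, in the exit tunnel, differed by 0.20 and 0.08, and were not called. Their paralogs, known from testis, had few or no counts, and since reads of paralogs can be lost this does not measure their mRNA. Rpl10l had 0 counts in all 8 libraries, which allows up to 3 counts or 0.527 to 1.74 per 1000000, depending on the library, and Rpl39l had 3 counts in DIO libraries and 0 in DIO + DHA libraries.

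A few members departed from the common shift. Rps15a was at 165, 387 and 129 CPM in DIO and at 170, 176, 203, 434 and 219 CPM in DIO + DHA mice. DIO replicate 4 and DIO + DHA replicate 5 were far above the other 6 libraries, which gave the largest standard error of any member, and its log2 difference was 0.06 ± 0.50. Its processed pseudogene Rps15a-ps6, looked at after this was seen, was high in the same libraries, at 37.3 and 41.0 CPM against 15.2 to 27.7 CPM in the others. Rpl35a was at 187, 148 and 79.7 CPM in DIO and 124, 114, 148, 124 and 130 CPM in DIO + DHA mice. The DIO values of Rpl35a surrounded the DIO + DHA values, its difference of −0.06 ± 0.27 changed sign with the library left out, and without DIO replicate 5 it was −0.36 and called lower. Rpl29 averaged 80.4 ± 2.76 CPM in DIO (SD, n = 3) and 74.0 ± 6.69 CPM in DIO + DHA mice (SD, n = 5), a difference of −0.13 with an adjusted p of 0.377 by edgeR.

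Besides Rpl10l and Rpl39l, Rpl24 and Rps10 did not pass the filter. Rpl24 had 11 counts in the DIO and 10 in the DIO + DHA libraries, and Rps10 had 10 and 14. Both proteins belong to every ribosome. Rpl24 shares 47.0% of its exon bases with the gene model Gm28037 on the same strand, and Rps10 shares 28.7% with Gm49804 and Gm15420. Of the last 300 exon bases, the part nearest to 3′-enriched reads, Rpl24 shares 21.3% and Rps10 shares 0%. Reads that overlap 2 genes were not counted, and the part of this overlap in their low counts was not tested. Members also share sequence with processed pseudogenes, and only unique alignments were counted. Ribosomal protein pseudogenes with a ps symbol (322 genes) held 5.49 to 7.37 counts per 100 member counts in DIO libraries and 5.59 to 6.14 in DIO + DHA libraries. Of the 61 tested by edgeR, 0 were called, 3 had an unadjusted p under 0.05, and the median log2 fold change was 0.10. By symbol most could be tied to a parent member. With their counts added to the parent, 26 members and 988 of all genes were called higher by edgeR. This setting was chosen after seeing the data. There Rpl10a went from 0.37 to 0.19, with an adjusted p of 0.227 by edgeR, and lost its call. The 44 tested members that share under 1% of their exon bases with another gene had 12 called and a median of 0.21.

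Box C/D and H/ACA small nucleolar RNAs, which guide the modification of ribosomal RNA, are often made from introns of these genes. In 30 members, all tested, the annotation places such a gene inside, and 10 of them were called higher with a median log2 fold change of 0.24. The 50 tested members without one had 15 called and a median of 0.22.

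Other lists of the translation machinery had smaller medians. The 4 further proteins of the cytosolic ribosome were not called. Fau, which encodes the small subunit protein S30 fused to a ubiquitin-like protein, averaged 914 ± 57.8 CPM in DIO (SD, n = 3) and 969 ± 196 CPM in DIO + DHA mice (SD, n = 5), and Rpl36al, the paralog of Rpl36a, at 25.4 ± 6.51 and 27.1 ± 4.37 CPM. Rack1, a scaffold on the head of the small subunit, was at 280 ± 44.7 and 320 ± 41.2 CPM, with the largest difference of the 4, 0.21, and an adjusted p of 0.195 by edgeR. Of 23 other TOP mRNAs 2 (8.70%) were called higher, near the 7.89% of all genes, and 0 lower, with a median of 0.15. These were Tpt1, a translationally controlled protein that rose by 0.33, and Eif3l, a subunit of initiation factor eIF3 that rose by 0.30. The elongation factors Eef1a1 and Eef2, of the same list, had differences of 0.11 and −0.02 and were not called. Among 27 other translation factors 4 (14.8%) were called higher and 0 lower, with a median of 0.11. They were Eif1 (0.24) and Eif1ax (0.40), which scan for the start codon, Eif5 (0.27), which triggers GTP hydrolysis there, and the recycling factor Abce1 (0.46).

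Genes that build ribosomes showed no common direction. Of 58 ribosome biogenesis genes 2 were called higher and 2 lower, and 29 fold changes were positive and 29 negative, around a median of 0.00. Nop10, of the pseudouridylating H/ACA particles, rose by 0.26 and Emg1, an rRNA methyltransferase, by 0.31. Nucleolin (Ncl) fell by 0.22 and Heatr1, which acts in the transcription of ribosomal RNA genes, fell by 0.47. In the list of mTOR and growth signalling, 0 of 24 genes were called higher and 1 was called lower, with a median of 0.01. That gene was Ddit4, an inhibitor of mTORC1 induced by stress. It was at 14.6, 9.20 and 9.58 CPM in DIO and at 4.36, 3.35, 4.64, 5.86 and 5.46 CPM in DIO + DHA mice. All its DIO + DHA values were lower, and it fell by 1.10 on the log2 scale with an adjusted p of 0.000202 by edgeR. Mtor, Larp1 and Myc, with differences of 0.26, −0.06 and −0.45, were not called. The mitochondrial ribosome, encoded by other genes, had 9 of 77 tested genes (11.7%) called higher and 0 lower, with a median of 0.12. Mrpl34 rose by 0.38, Mrpl15 by 0.32 and Mrps31 by 0.61. Together the lists other than the mitochondrial one held 11 called genes, 7 without DIO replicate 4 and 6 without DIO replicate 5.

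**Figure D5:**
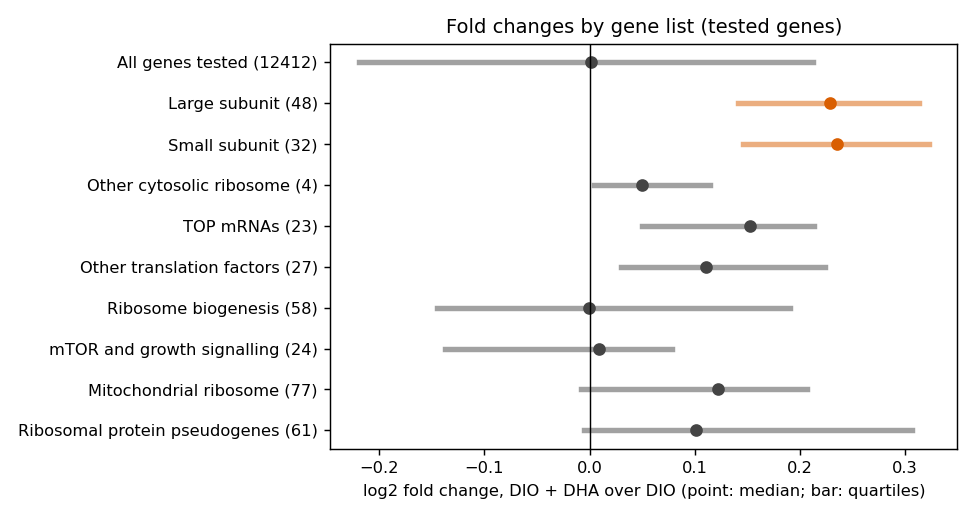
Median (point) and quartiles (bar) of the log2 fold change, DIO + DHA over DIO, of the tested genes of each list (number of genes in brackets). The medians of both ribosomal subunits are 0.23 and 0.24, those of the TOP, translation factor and mitochondrial ribosome lists are 0.11 to 0.15, and those of ribosome biogenesis and mTOR signalling are near 0, as is that of all genes.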

How the data were processed

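Per the labels and the study's methods, poly(A) liver RNA was made into 3′-enriched cDNA by an adaptation of SCRB-seq, in which the primer carries the barcode of the sample and a molecular identifier. The authors checked the reads with FastQC 0.11.8, trimmed them, aligned them to GRCm39 with STAR 2.7.9a and counted them per gene of GENCODE release 33 by means of featureCounts 1.6.0. The deposited numbers are raw counts. Per the file headers, counting ignored strand, took only unique alignments and skipped reads overlapping 2 genes, so antisense and overlapping partners cannot be told apart and paralog or pseudogene reads can be lost. Collapsing of molecular identifiers is not stated, so floors cover counting error only.

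Groups came from the sample titles. Gene names came from GENCODE release 39, which held 56323 of 56884 identifiers. The members and lists were chosen with earlier results of these data known. Genes with a count under 5 in over 50% of libraries in both groups were left out, and 12412 were tested. Counts were scaled by TMM and tested with edgeR 4.0.16 in R 4.3.3 (robust quasi-likelihood F test, Benjamini-Hochberg adjustment, threshold 0.05, common biological coefficient of variation 0.0801). The standard error is the log2 fold change divided by the square root of F. No p-value was adjusted over the members alone, and lists are described by counts and medians. The script was tested on simulated data.

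Named members are the called members with the smallest p (up to 12), the 3 with the largest and the 3 with the smallest fold change, the stalk proteins, Rps6, Rps27a, Rpl5, Rpl11, 7 paralog pairs and the members not tested. From the lists of other genes, up to 3 called genes per list and direction with the smallest p were named, and the further ribosome proteins. Some genes that these rules name are counted but not reported here. Further called members, Abce1, Rps15a, Rps15a-ps6, Eef1a1, Eef2, Mtor, Larp1, Myc and the marker genes were added after their values were seen. The window of the TOP search ran from 10 bases before the RefSeq start to 20 from it. Alternatives were DESeq2 size factors, library size alone, TMM without members or without marker genes, the DESeq2 1.42.0 Wald test, limma-voom (limma 3.58.1), other filters and thresholds, a replicate block and each library left out. Quantitative PCR was not analysed here.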

Additional observations from a re-analysis of the deposited data

Results flagged for a closer look

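In 10 of the 80 tested members, 1 of the 5 DIO + DHA libraries stood apart from the other 4 by Dixon's criterion at the 95% level, where chance gives about 4 (1 in 20), and 8 of the 10 are given here. DIO + DHA replicate 1 was the high library for Rps28 (342 CPM), Rpl30 (328 CPM) and Rpl28 (496 CPM), and DIO + DHA replicate 6 for Rps21 (516 CPM). DIO + DHA replicate 5 was the high library for Rps15a (434 CPM). It was the low library for Rpl13a (31.4 CPM), Rpl26 (522 CPM) and Rpl10 (174 CPM). For Rpl13a its value lay among the DIO values of 31.2 to 32.8 CPM, and without that library Rpl13a was called higher. Rpl26 is among the called members.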

How the results depend on the processing

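The number of members called higher was 22 to 26 under every scaling tried, with 77 positive fold changes each time. All genes called higher then numbered 904 to 999. With the DESeq2 Wald test 17 members and 716 of all genes were called higher. The numbers were 3 and 463 with limma-voom at B above 0, and 12 and 657 at an adjusted p under 0.01. They were 34 and 1242 at an adjusted p under 0.1, and 36 and 980 without a filter, where more genes were tested. Leaving out each library in turn gave 13 to 33 members higher, 0 to 1 lower, and a median fold change of 0.19 to 0.27. Of all genes 1428 to 1851 were then called, 746 to 971 of them higher. The lowest number of members came without DIO replicate 5 and the highest without DIO + DHA replicate 5. Of the 25 called members, 10 were called with each library left out, 16 by DESeq2 and 2 by limma-voom at B above 0. All genes called numbered 1883 as reported, 860 at B above 0 and 1225 at an adjusted p under 0.01. With library size alone 904 genes were higher and 961 lower, against 979 and 904. The 11 calls in the other lists became 7 with DESeq2, 1 at B above 0, 5 and 20 at the thresholds of 0.01 and 0.1, and 6 to 13 with a library left out.

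Rpl35a reversed to 0.053 with limma-voom, at either threshold, and to 0.023 under the replicate block, and leaving out single libraries moved it from −0.36 to 0.17. Rpl39 ranged from −0.050, without DIO replicate 1, to 0.26, without DIO replicate 4. The cause of these changes was not tested. The replicate numbers 1, 4 and 5 occur in both groups but name the mice only, with correlations of −0.01, −0.02 and −0.05 between same-numbered libraries, and no library correlated best with its own number. With the replicate number as a block over those 6 libraries 24 members were called higher, 16 of them among the 25, and 25 without the block. Of all genes 815 and 874 were called higher in these 2 fits. DIO replicate 1 had the fewest counts, which limits the members of low level most.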
